A study of Mus musculus with 10 samples.

Results

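Noncoding RNAs grouped as nuclear were examined in mouse lower airway mast cells together with Kcnq1, the potassium channel gene whose locus holds one of them. Where in the cell each RNA was is not shown by these counts. The 6 genes are Kcnq1ot1, Gm17821, Malat1, Neat1, the 45S ribosomal RNA precursor Rn45s, and Kcnq1, of 22815 symbols counted. They were selected on how Kcnq1ot1, the other noncoding RNAs and Rn45s varied with the total of a library and on how Kcnq1 followed the sorted population. Those patterns are therefore given as a description with no test. Each of the 6 passed the filter on low counts, as did 10533 symbols in all.

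The cells were mast cells sorted by flow cytometry from wild type C57BL/6 mice of 5 to 7 weeks. They were sorted as 2 populations that the labels call B7hi and B7low, in a study of inducible and constitutive mast cells. Mice had received intranasal saline (PBS, 20 µL) or 3 µg of house dust mite (HDM) extract in the same volume, 2 times a week for 3 weeks. Saline gave 2 libraries of B7hi and 2 of B7low cells, and HDM gave 3 of each, so there were 4 groups and 10 libraries. All groups shared genotype, strain and age, and no label says whether a library came from 1 mouse or from pooled mice, so a p-value measures the spread between these libraries, which may in part be technical.

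Kcnq1ot1 is a long, unspliced RNA read from the strand opposite to Kcnq1. In imprinting it is made from the paternal chromosome and silences neighbouring genes there. Malat1 sits in nuclear speckles, the bodies that store splicing factors, and Neat1 is the scaffold of paraspeckles, bodies that hold RNA-binding proteins. The 45S precursor is copied by RNA polymerase I in the nucleolus and cut into the ribosomal RNAs. Kcnq1 encodes the pore of a voltage-gated potassium channel, and KCNE proteins are its partner subunits, which set how it opens.

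Library totals ran from 525983 (B7hi HDM 2) to 1725818 counts (B7hi saline 2), with 12286 to 14795 genes detected. A count of 0 allows a level of up to 5.70 CPM (counts scaled to a common library total) in the smallest library and 1.74 CPM in the largest, from 3 counts over the total. Such limits, and the counting intervals below, cover counting error only, because reads copied by amplification carry no molecular identifier here. Levels below are CPM of the TMM-scaled library size unless a share of counts is given. The labelled cell type was checked by 12 mast cell markers, which all passed the filter and summed to 15210 to 34490 CPM in B7hi and 57710 to 112200 CPM in B7low libraries. Of other cell types, the 6 basophil markers had the highest sum. With saline it was 1871 to 2399 CPM in B7hi and 1472 to 1936 CPM in B7low. With HDM it was higher in B7hi, 2439 to 3116 CPM against 1628 to 2269 CPM in B7low. By gene, 2 of them, Prss34 and Cd200r3, were lower in B7hi with each challenge. The log2 difference was below 0 in 4 of the 6 with saline and in 3 of the 6 with HDM. Marker sums of epithelial cells reached 193 CPM and those of endothelial cells 611 CPM at most. Those of B cells were 77.1 to 548 CPM in B7low HDM against 3.75 to 17.6 CPM in B7hi HDM. Of 4 tested B cell markers, 3 (Cd79b, Ms4a1 and Cd79a) were called lower in B7hi with HDM, beside 2.84% of all tested genes. Of 4 tested epithelial markers, 1 (Cdh1) was called higher in B7hi with saline, beside 6.54%. The part of such cells in the population differences was not tested. With saline, both B7hi libraries were larger (1222409 and 1725818 counts) than both B7low libraries (652736 and 639906 counts). Population and library total therefore cannot be told apart there. The noncoding RNAs were selected on how they varied with the total, so their saline p-values are not independent of that selection. With HDM the totals of the populations overlapped.

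On GRCm38 (mm10), GENCODE M21 places Kcnq1 on the plus strand at chr7:143106362-143427042. Kcnq1ot1 lies on the minus strand at chr7:143203458-143296549, inside Kcnq1. Read on the minus strand, its model starts between exons 12 and 11 of the longest Kcnq1 transcript (16 exons) and ends between exons 11 and 10. It covers exon 11, 121 bases at chr7:143261256-143261376, and the rest of the overlap is intronic. Whether reads were counted by strand is not given, so reads from that exon cannot be assigned to 1 of the 2 genes from the sources used here. The library with the most Kcnq1ot1 reads (6199, B7hi HDM 2) had 0 reads for Kcnq1.

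**Figure D1:**
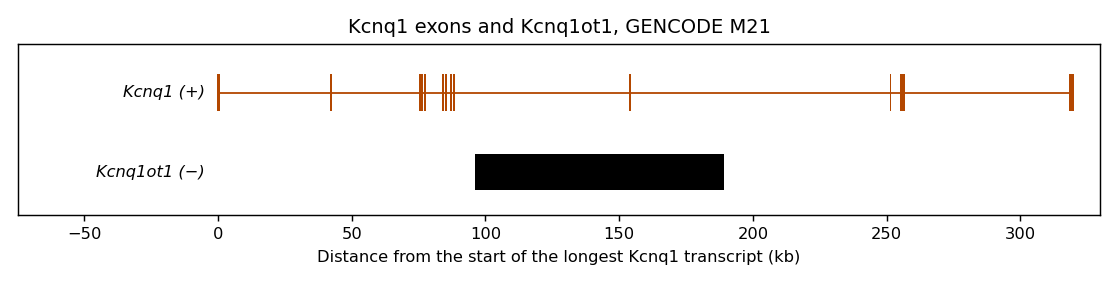
Map of the Kcnq1 locus, with distance from the start of the longest Kcnq1 transcript in kb on the horizontal axis. The upper line is Kcnq1 with its 16 exons as bars, widened so that they can be seen, and the black box is Kcnq1ot1 on the opposite strand, which spans 1 of the exons.

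After Gm17821, Kcnq1ot1 was the most variable of the selected noncoding RNAs by highest over lowest level, and stood highest in a pair of small libraries of different groups. Its level was 1537 and 1231 CPM with saline and 806, 12133 and 1408 CPM with HDM in B7hi. In B7low it was 2794 and 6956 CPM with saline and 2367, 1955 and 2535 CPM with HDM. A pair of libraries, B7hi HDM 2 and B7low saline 2, stood above the other 8, and the populations overlapped because of the first of them. Across the 10 libraries the highest level was 15.1 times the lowest, against 2.31 times for Malat1, 2.99 times for Neat1 and 1.71 times for Rn45s. By number of reads too, the highest value (6199) was in the library with the smallest total, where Kcnq1ot1 took 1.18% of the counts (exact binomial 95% interval 1.15% to 1.21%), against 0.0759% (0.0718% to 0.0802%) in B7hi HDM 1.

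The level of Kcnq1ot1 was lower in libraries with a larger total (Spearman's rho -0.83 over 10 libraries), which describes how it was chosen and carries no test. The pair of high libraries were also those with the totals farthest from the median, and without them rho was -0.67 over 8 libraries. Total and level share the same library and its depth, and the levels formed separate clusters, so this number summarises an order and no more. Among those 8 libraries B7hi ran from 806 to 1537 CPM and B7low from 1955 to 2794 CPM, without overlap. That holds only with the pair that stood highest for Kcnq1ot1 left out, and over all 10 libraries the populations overlapped. The share of all tested genes that separate in the 8 was not computed. The fits showed no change that passed the threshold. The log2 difference of B7hi from B7low was -1.82 ± 1.24 (SE) with saline (edgeR, adjusted p = 0.456) and 1.06 ± 0.99 with HDM (adjusted p = 0.739). The value with HDM rested on 1 library: without B7hi HDM 2 it was -1.09 (adjusted p = 0.210), and the saline difference, -1.85, then passed at an adjusted p of 0.0165. With both high libraries left out, the differences were -1.02 (adjusted p = 0.152) and -1.07 (adjusted p = 0.0906).

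**Figure D2:**
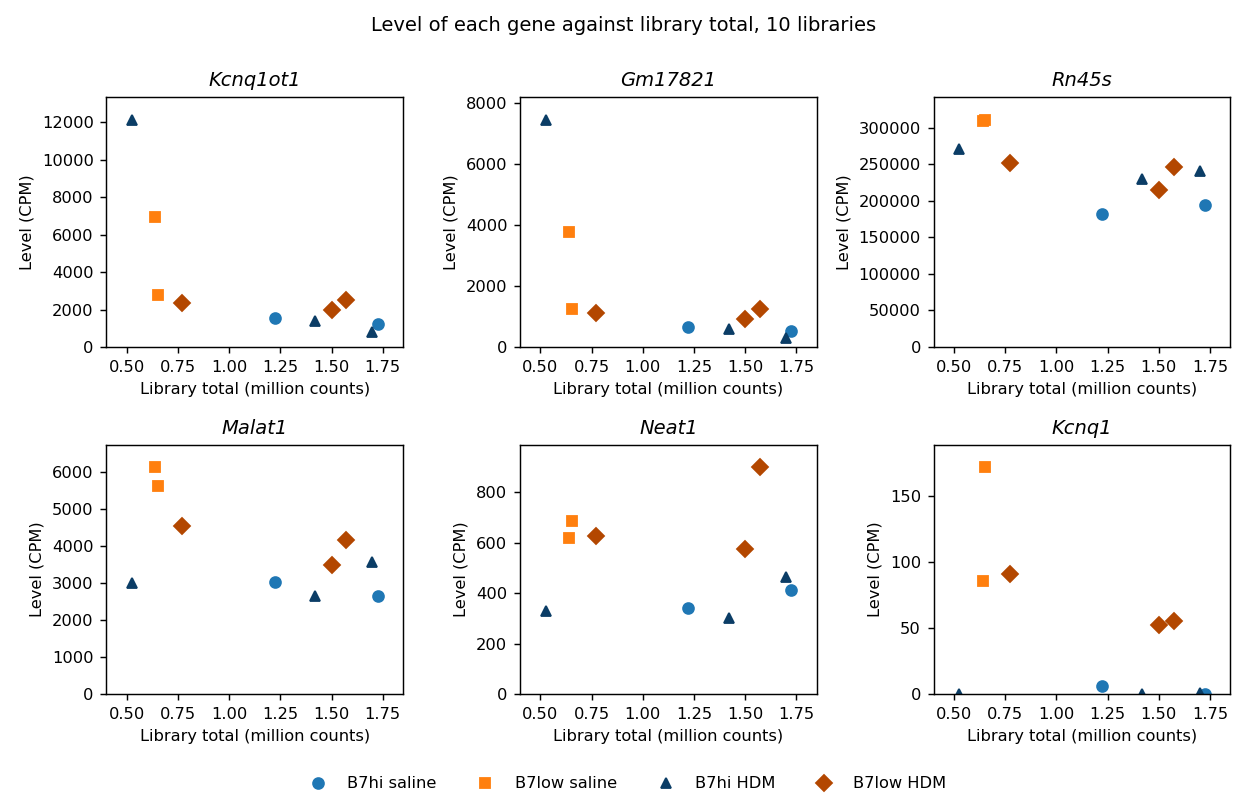
Level in CPM (vertical axis, from 0) against library total (horizontal axis) for each of the 6 genes, with 1 point per library and the group by colour and shape. Kcnq1ot1 and Gm17821 are highest in the smallest library, Rn45s is high in the small libraries, and Neat1 and Kcnq1 separate the B7low from the B7hi points at any total.

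Gm17821 followed Kcnq1ot1 closely. It is annotated as a processed pseudogene on the minus strand of chromosome 12 (chr12:67658527-67669276, GENCODE M21). Its level was 657 and 511 CPM in B7hi saline, 1262 and 3776 CPM in B7low saline, 292, 7461 and 599 CPM in B7hi HDM, and 1118, 925 and 1240 CPM in B7low HDM. The same pair of libraries were highest, and the largest level was 25.6 times the smallest. Pearson's r with Kcnq1ot1 on log2 CPM was 0.9993 over 10 libraries and 0.9973 over the 8 others. This is a description over points that share depth and amplification. The ratio of Kcnq1ot1 reads to Gm17821 reads was not constant: it was 1.63 in B7hi HDM 2 and 1.84 in B7low saline 2, and 2.05 to 2.76 elsewhere. Relative to Kcnq1ot1, Gm17821 was thus most abundant in the 2 libraries where both were high. The annotated exons of Gm17821 (1693 bases) shared no 25-base word with the Kcnq1ot1 transcript, 25 bases being the length of a sequencing read. Its population differences were -2.11 ± 1.49 with saline (edgeR, adjusted p = 0.472) and 1.34 ± 1.19 with HDM (adjusted p = 0.721), and the latter was -1.34 (adjusted p = 0.171) without B7hi HDM 2. Without that library the saline difference, -2.15, passed at an adjusted p of 0.0160.

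Among 6220 genes with a mean of at least 20 CPM, the 5 whose log2 CPM was most like that of Kcnq1ot1 over the 10 libraries were Grk4, A630089N07Rik, A130077B15Rik, Psg28 and Gm20300. Grk4 encodes a kinase of G protein-coupled receptors, and Psg28 a pregnancy-specific glycoprotein. Pearson's r was 0.9969 for Grk4, 0.9964 for A630089N07Rik, 0.9922 for A130077B15Rik, 0.9854 for Psg28 and 0.9844 for Gm20300, and 0.9569 to 0.9902 over the 8 libraries without the high pair. Grk4 stood at 182 and 108 CPM in B7hi saline, 358 and 955 CPM in B7low saline, 78.8, 2020 and 153 CPM in B7hi HDM, and 304, 239 and 302 CPM in B7low HDM. A130077B15Rik, the most abundant of the 5, ran from 121 to 2458 CPM, and Psg28 from 12.5 to 372 CPM. Each of the 5 was highest in B7hi HDM 2 and second highest in B7low saline 2.

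Several of these genes share exact sequence with Kcnq1ot1. The longest stretches that its transcript has in common with the 3 most similar genes are shown. A read of 25 bases that falls inside one fits either gene by itself, though reads were paired and the mate can lie outside it. Only annotated transcripts were searched, so copies elsewhere in the genome are not counted. The capitals are the shared bases, with 20 Kcnq1ot1 bases on each side in lower case, read on the minus strand from GENCODE M21 transcripts (GRCm38). The stretch of 41 bases in common with Grk4 lies at chr7:143220389-143220469 with its flanks and is held by 8 annotated genes, Kcnq1ot1 included. That of 63 bases with A630089N07Rik lies at chr7:143228963-143229065 and that of 49 bases with A130077B15Rik at chr7:143221097-143221185, and 3 genes hold each.
Kcnq1ot1 stretch shared with Grk4: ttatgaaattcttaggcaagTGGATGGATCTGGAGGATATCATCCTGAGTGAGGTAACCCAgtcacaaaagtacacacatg
Kcnq1ot1 stretch shared with A630089N07Rik: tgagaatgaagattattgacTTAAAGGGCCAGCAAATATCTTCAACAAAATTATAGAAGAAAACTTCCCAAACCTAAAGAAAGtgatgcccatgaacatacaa
Kcnq1ot1 stretch shared with A130077B15Rik: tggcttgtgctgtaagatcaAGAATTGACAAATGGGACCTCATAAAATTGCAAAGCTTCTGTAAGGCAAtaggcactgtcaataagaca

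Of the 20 genes most like Kcnq1ot1, 19 had a GENCODE transcript, and 16 of these (84.2%) held at least one 25-base word of Kcnq1ot1 on either strand. Words with fewer than 3 kinds of base were left out. Over all tested genes the share was 26.1% (2629 of 10068), and over the 20 genes most like Kcnq1 it was 21.1% (4 of 19). The number of words shared was 102 for Grk4, 152 for A630089N07Rik, 95 for A130077B15Rik, 4 for Psg28 and 43 for Gm20300, while Vmn2r55 and Synj2bp, which also followed Kcnq1ot1, shared 0. The part of shared words in the likeness was not tested.

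Chemosensory receptor genes, summed after the first results were seen, moved with Kcnq1ot1 as well. These receptors detect odours and pheromones in the nose. The 1117 olfactory receptor symbols summed to 249 and 217 CPM in B7hi saline, 537 and 1543 CPM in B7low saline, 149, 1444 and 209 CPM in B7hi HDM, and 497, 352 and 397 CPM in B7low HDM. Between 97 and 295 of them had a count in a library, most in B7hi HDM 2. The 325 vomeronasal receptor symbols reached 971 CPM in B7hi HDM 2 and 833 CPM in B7low saline 2, against 56.3 to 251 CPM in the other 8. What these sums have to do with the level of Kcnq1ot1 was not tested.

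**Figure D3:**
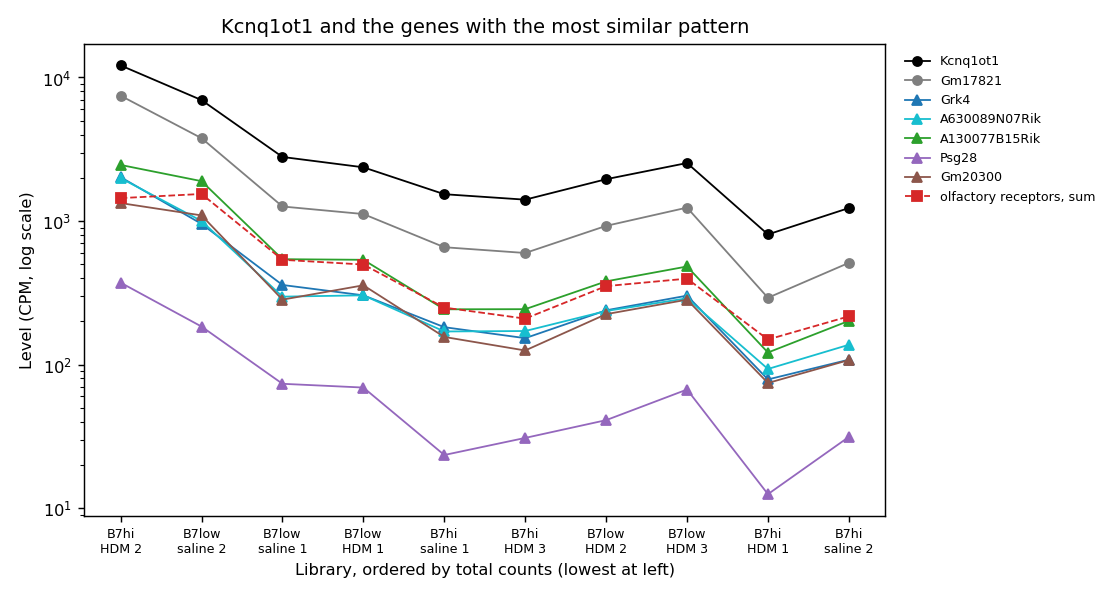
Level in CPM on a log axis for Kcnq1ot1, Gm17821, the 5 most similar genes and the sum of olfactory receptor genes, in the 10 libraries ordered by total from lowest at left to highest at right. All lines are highest in the 2 leftmost libraries, B7hi HDM 2 and B7low saline 2, and lowest in B7hi HDM 1.

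The Kcnq1ot1 transcript is 93092 bases long with 33.3% A, and holds 10 runs of 10 or more A (0.107 per kb), 4 of them of 20 or more. Malat1, a far shorter RNA, has 1 run of at least 10 (12 bases, 0.143 per kb), and Neat1, Kcnq1 and the exons of Gm17821 have none. The labels' protocol starts from poly(A)+ RNA, so the longest runs are shown with 50 bases before and 20 after, on the minus strand, with the run in capitals. The run of 41 lies at chr7:143226925-143227035 and that of 23 at chr7:143222756-143222848. The sequences around them were alike, with 42 of 50 bases the same before the run and 18 of 20 after it. How the runs bear on the counts was not tested.
Kcnq1ot1 run of 41: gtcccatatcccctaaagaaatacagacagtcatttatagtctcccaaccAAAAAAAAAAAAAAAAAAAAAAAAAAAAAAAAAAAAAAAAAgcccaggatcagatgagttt
Kcnq1ot1 run of 23: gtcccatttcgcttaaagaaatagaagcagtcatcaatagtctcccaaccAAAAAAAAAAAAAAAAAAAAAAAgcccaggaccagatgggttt

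Rn45s was the most abundant of the 6 in every library. It took 19.7% and 21.6% of counts in B7hi saline, 27.2% and 28.9% in B7low saline, 22.7%, 26.3% and 23.6% in B7hi HDM, and 24.1%, 21.9% and 24.9% in B7low HDM. With saline both B7low libraries were above both B7hi libraries, and with HDM the populations overlapped. Its level ran from 181668 to 310900 CPM. Its order against the totals was the same way as that of Kcnq1ot1 but looser (rho -0.67 over 10 libraries and -0.45 over 8), again a description. The population difference was -0.72 ± 0.26 with saline, which did not pass by edgeR (adjusted p = 0.111) but did by DESeq2 (0.00155), limma-voom (0.0140) and edgeR with a replicate block (0.0276), and 0.06 ± 0.21 with HDM (adjusted p = 0.941). Neither table of gene models used here has Rn45s, so no position is given. Whether its reads came from the precursor or from the ribosomal RNAs cut from it was not tested.

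Among factors that make and process ribosomal RNA, 51 tested of 52 listed, 1 was higher in B7hi with saline, Nhp2, a protein of the small nucleolar particles that guide pseudouridylation (2.54 ± 0.62, edgeR, adjusted p = 0.0202). It stood at 37.8 and 52.7 CPM in B7hi and 8.74 and 6.69 CPM in B7low, and the call was lost without any 1 of the 4 saline libraries (adjusted p 0.0514 to 0.119). With HDM 2 were higher in B7hi, the nucleolar chaperone Npm1 (1.07 ± 0.26, adjusted p = 0.033) and the nucleolar particle protein Nop58 (0.95 ± 0.24, adjusted p = 0.0426). None was lower. Over all tested genes 6.54% passed with saline and 2.84% with HDM. Npm1 did not pass without any 1 of the B7hi HDM libraries or without B7low HDM 1 or 3 (adjusted p 0.0692 to 0.196). Nop58 did not pass without any 1 of 7 libraries: both B7hi saline, the 3 B7hi HDM, and B7low HDM 1 and 3 (adjusted p 0.0515 to 0.178). The median log2 difference over the 51 genes was 0.26 with saline and 0.40 with HDM, beside 0.03 over all tested genes in each, and 15 of 51 were below 0 with saline and 6 of 51 with HDM. Of 11 tested host genes of small nucleolar RNAs, Rps12, a ribosomal protein gene, was higher in B7hi with HDM (1.28 ± 0.26, adjusted p = 0.0108), at 641, 705 and 622 CPM against 232, 383 and 196 CPM in B7low. That call was lost without B7hi HDM 2, B7low HDM 1 or B7low HDM 3 (adjusted p 0.0566 to 0.0807).

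Malat1 was lower in B7hi than in B7low cells with saline. It stood at 3038 and 2652 CPM in B7hi and 5646 and 6137 CPM in B7low, with means of 2845 ± 273 and 5891 ± 347 CPM (SD, n = 2 each). With HDM it was 3584, 3020 and 2661 CPM in B7hi and 4564, 3507 and 4167 CPM in B7low, where the highest B7hi library lay above the lowest of B7low. The log2 difference was -1.05 ± 0.27 with saline (edgeR, adjusted p = 0.030) and -0.40 ± 0.22 with HDM, which did not pass (adjusted p = 0.473). Malat1 was 1 of the 5 noncoding RNAs past the threshold with saline, where 6.54% of all tested genes passed. Kcnq1, selected on this contrast, is not counted. With saline the populations also differed in library total, on which the noncoding RNAs were selected. The saline p-value of Malat1 is therefore not independent of that selection. Malat1 no longer passed when B7hi saline 1 was left out (adjusted p = 0.151), B7hi saline 2 (0.202), B7low saline 1 (0.0716), B7low saline 2 (0.0923) or B7hi HDM 2 (0.053) was, and with library size alone as the scale (0.0607). In bulk RNA, fewer cells of a type and less RNA per cell cannot be told apart. The summed mast cell markers, 15210 and 18010 CPM in B7hi against 64900 and 112200 CPM in B7low with saline, moved in the same direction, and their part in the Malat1 difference was not tested.

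Neat1 separated the populations in every library. It stood at 342 and 415 CPM in B7hi saline and 463, 331 and 301 CPM in B7hi HDM. In B7low it was 685 and 619 CPM with saline and 625, 576 and 898 CPM with HDM. All 5 B7low libraries were above all 5 B7hi libraries, as in 4.94% of all tested genes. The difference was -0.94 ± 0.24 with HDM (edgeR, adjusted p = 0.0488) and -0.78 ± 0.30 with saline, which did not pass (adjusted p = 0.133) but did by DESeq2 (-0.86, adjusted p = 0.0434). With HDM, Neat1 was 1 of the 5 noncoding RNAs past the threshold, where 2.84% of all tested genes passed; Kcnq1, selected on population, is not counted. The Neat1 call stood at the edge: it was lost without B7hi saline 1 (adjusted p = 0.0666), B7hi saline 2 (0.0651), B7low saline 1 (0.0522), B7hi HDM 2 (0.167), B7hi HDM 3 (0.196), B7low HDM 1 (0.106) or B7low HDM 3 (0.183), and when only genes of at least 5 CPM in 2 libraries were tested (0.0542). As a description, rho of the level with the library total was 0.0061 for Neat1 over 10 libraries (-0.19 over the 8 without the high pair), -0.41 for Malat1 (-0.57) and -0.34 for Kcnq1 (-0.67).

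Per length of the longest annotated transcript, Malat1 was the most abundant of the 4 RNAs with a length that could be used. For Neat1 that length was 20771 bases. A shorter transcript would raise its level per kb, and which transcript the reads came from was not tested. The median over 10 libraries was 508 CPM per kb for Malat1 (380 to 879), 25.005 CPM per kb for Neat1 (14.5 to 43.2) and 23.2 CPM per kb for Kcnq1ot1 (8.66 to 130). Kcnq1 had 17.4 to 56.6 CPM per kb in B7low and 0 to 1.996 CPM per kb in B7hi. In B7low saline 1 its 56.6 CPM per kb was, on these lengths, above Neat1 (33) and Kcnq1ot1 (30.01). Malat1 lies at chr19:5795690-5802672 and Neat1 next to it at chr19:5824708-5845478, both on the minus strand (GENCODE M21, GRCm38).

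The protein partners of these RNAs are set beside 6.54% of all tested genes called with saline and 2.84% with HDM. Of 40 tested nuclear speckle and splicing factors none passed in either population contrast, with a median log2 difference of 0.15 with saline and 0.17 with HDM. Of 41 tested paraspeckle proteins, 1 was higher in B7hi with saline and none with HDM. It was Nono, a core paraspeckle protein that binds Neat1, at 376 and 373 CPM in B7hi and 161 and 174 CPM in B7low (1.16 ± 0.29, edgeR, adjusted p = 0.0248). The call was lost without any 1 of the 4 saline libraries (adjusted p 0.0723 to 0.128). The median over the 41 was 0.31 with saline and 0.09 with HDM. Among 13 tested long noncoding RNAs of a general list, Malat1 with saline and Neat1 with HDM were the only genes past the threshold. The median difference over the 13 was -0.76 with saline, with 12 of 13 below 0, and -0.40 with HDM, with 9 of 13 below 0, beside 0.03 over all tested genes.

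**Figure D4:**
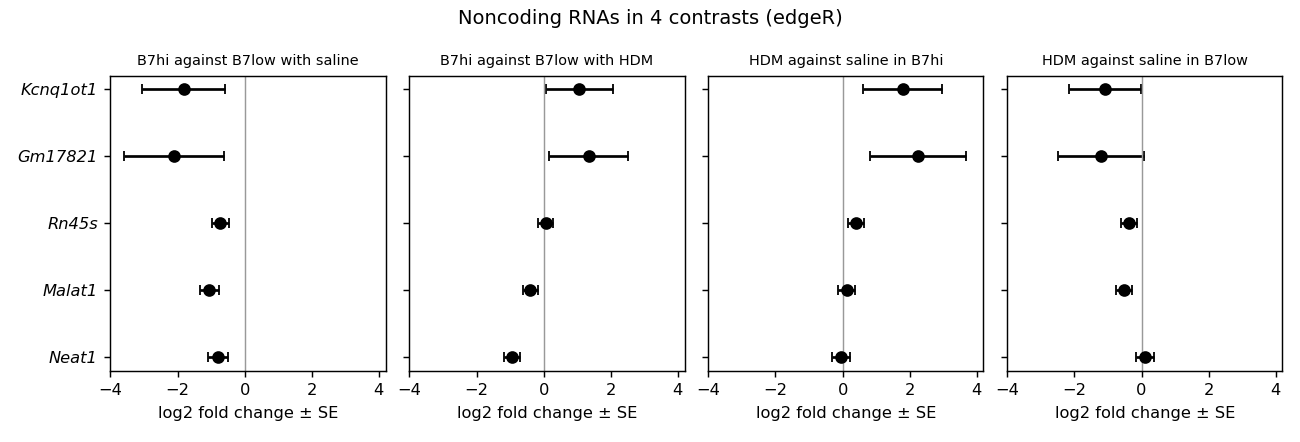
Log2 fold change (horizontal axis) with its approximate SE as bars for the 5 noncoding RNAs in 4 contrasts, from edgeR over all 10 libraries. The bars of Kcnq1ot1 and Gm17821 are the widest, and Malat1 with saline and Neat1 with HDM are the values past the threshold.

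Kcnq1 was read almost only in B7low cells. Its level was 171 and 85.3 CPM in B7low saline and 90.8, 52.7 and 55.6 CPM in B7low HDM. In B7hi it was 6.05 and 0 CPM with saline and 1.25, 0 and 0 CPM with HDM. The reads behind these levels were 98, 51, 67, 81 and 88 in B7low and 8, 0, 2, 0 and 0 in B7hi. All B7low libraries were above all B7hi libraries, the pattern on which the gene was selected, so no test is given. By pooled counts over pooled totals, Kcnq1 was 42.5-fold higher in B7low than in B7hi with saline (95% counting interval 21.01 to 100.2). With HDM it was 112-fold higher (30.6 to 929). These intervals leave out the spread between libraries, and each fold rests on 1 library: all 8 B7hi saline reads were in B7hi saline 1 and both B7hi HDM reads in B7hi HDM 1. Without B7hi saline 1, Kcnq1 was at least 66.3-fold higher in B7low with saline, and without B7hi HDM 1 at least 39.8-fold higher with HDM, against a floor of 3 counts over the group. The 3 B7hi libraries without a count allow up to 1.74 CPM (B7hi saline 2), 5.70 CPM (B7hi HDM 2) and 2.11 CPM (B7hi HDM 3). Within B7low, Kcnq1 was lower with HDM than with saline on average (66.4 ± 21.2 CPM, n = 3, against 128 ± 60.9 CPM, n = 2), but the groups overlapped and the difference did not pass (-0.97 ± 0.56, edgeR, adjusted p = 0.629).

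Set side by side, the library with the highest Kcnq1 level, B7low saline 1, had a Kcnq1ot1 level of 2794 CPM, the highest outside the pair of high libraries. The library with the highest Kcnq1ot1 level, B7hi HDM 2, had no Kcnq1 read. Among the 8 libraries left when that pair is set aside, both genes were higher in every B7low than in every B7hi library. Over all 10 libraries this held for Kcnq1 and not for Kcnq1ot1. Whether the 2 genes move together was not tested.

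Kcne3, a partner subunit of the Kcnq1 channel that keeps it open at resting voltages, had the same population pattern. It stood at 593 and 331 CPM in B7low saline and 411, 245 and 171 CPM in B7low HDM, against 32.5 and 26.1 CPM in B7hi saline and 40.0, 39.1 and 27.4 CPM in B7hi HDM. The groups did not overlap between populations. The log2 difference was -3.98 ± 0.43 with saline (edgeR, adjusted p = 5.87e-05) and -2.96 ± 0.35 with HDM (adjusted p = 1.44e-04), and it passed in all 19 alternatives run for each. Kcne3 lies at chr7:100176502-100184869 on the plus strand, outside the Kcnq1 region. Of 15 listed KCNQ channel subunits and regulators 8 were tested. With Kcnq1 set aside, Kcne3 was the 1 that passed with each challenge, beside 6.54% of all tested genes with saline and 2.84% with HDM. Kcnq5, another pore subunit, had 7.83 to 21.9 CPM in B7hi and 6.95 to 28.4 CPM in B7low. Of 10 tested channels of other potassium families, Kcnn4, a calcium-activated channel, was higher in B7hi with saline (2.92 ± 0.64, adjusted p = 0.0163), at 186 and 164 CPM against 12.2 and 33.4 CPM. That call was lost without B7hi saline 1, B7hi saline 2 or B7low saline 1 (adjusted p 0.0509 to 0.116).

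**Figure D5:**
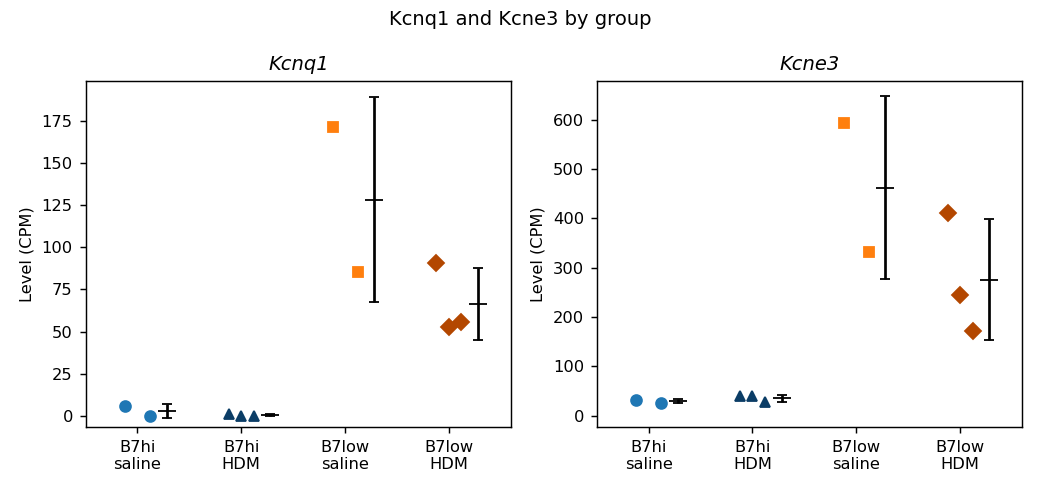
Level in CPM of Kcnq1 (left) and Kcne3 (right) by group, with 1 point per library and the group mean ± SD beside the points. All B7low points lie above all B7hi points for both genes, with Kcnq1 between 0 and 6.05 CPM in B7hi.

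The 5 genes most like Kcnq1 over the 10 libraries were Lrmp (Pearson's r 0.9905), Cyb5 (0.9848), Apoe (0.9803), Mrgprb1 (0.9794) and Tbc1d8 (0.9778), again on log2 CPM and as a description. Lrmp encodes a membrane protein of the endoplasmic reticulum, Cyb5 an electron carrier, Apoe a lipid carrier and Mrgprb1 a Mas-related receptor. Mrgprb1 had 1328 to 3100 CPM in B7low, and 9.83 and 1.04 CPM in B7hi saline and 15, 5.87 and 0.685 CPM in B7hi HDM. Lrmp differed less, with 202 to 295 CPM in B7low and 74.4 to 96.7 CPM in B7hi. Within B7low, Kcnq1, Lrmp, Apoe and Mrgprb1 were each highest in B7low saline 1. The lowest B7low library was B7low HDM 2 for Kcnq1, Apoe and Mrgprb1 and B7low HDM 3 for Lrmp.

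Of 29 genes on a list named for the Kcnq1 imprinted region, 14 passed the filter on low counts. Which of the listed genes lie inside the imprinted domain, or are imprinted, was not checked. Apart from Kcnq1, Cd81 and Ctsd were lower in B7hi with saline and none was higher, where 6.54% of all tested genes passed in either direction. Cd81, a tetraspanin, had 282 and 272 CPM in B7hi saline and 1411 and 781 CPM in B7low saline (-1.99 ± 0.34, edgeR, adjusted p = 0.00178), and 633, 458 and 431 CPM against 1144, 1045 and 731 CPM with HDM (-0.94 ± 0.27, adjusted p = 0.0735). Ctsd, a lysosomal protease, gave -1.37 ± 0.33 with saline (adjusted p = 0.0201), lost without B7hi saline 1, B7hi saline 2 or B7low saline 1 (adjusted p 0.0870 to 0.182). With Kcnq1 set aside, as it was selected on population, none of the 14 passed with HDM. The median over the 14 was -0.12 with saline and 0.05 with HDM.

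Other imprinted genes showed 2 lower values in B7hi with saline among 17 tested, and none with HDM. Over all tested genes 6.54% passed with saline and 2.84% with HDM, the shares to set beside this list and the chromatin factors below. Peg13, a noncoding RNA, had 20.4 and 16.7 CPM in B7hi and 57.7 and 93.6 CPM in B7low (-2.03 ± 0.50, edgeR, adjusted p = 0.0232). Usp29, a deubiquitinase gene, had 0 and 0 CPM in B7hi saline and 10.5 and 18.4 CPM in B7low saline (edgeR, adjusted p = 0.0285). Its levels rest on few reads, as 1 count was 1.53 CPM in B7low saline 1 and 1.56 CPM in B7low saline 2. Its counts of 0 allow up to 2.45 CPM in B7hi saline 1 and 1.74 CPM in B7hi saline 2. Both calls were lost without B7hi saline 1, B7hi saline 2 or B7low saline 2 (adjusted p 0.0779 to 0.161). Gnas, the most abundant of the list, was nearly level at 127 to 161 CPM in all libraries. Of 28 tested chromatin factors through which noncoding RNAs silence genes, Cbx7, a Polycomb protein, was lower in B7hi with saline (-2.33 ± 0.56, adjusted p = 0.0201), and the call was lost without B7hi saline 1 or B7low saline 1 (adjusted p 0.206 and 0.0715).

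HDM was not followed by a change past the threshold in any of the 6 genes. In B7hi 1 gene of all tested, Ecm1, passed (0.00949%), and in B7low 1, Il6 (0.00949%). These were named because the counts were so small, and 435 and 956 genes had an unadjusted p under 0.05. None of the 6 passed after adjustment, with edgeR adjusted p-values of 0.999 in B7hi and of 0.541 to 0.937 in B7low. Malat1 was among the 956 in B7low, with an unadjusted p of 0.0453 by edgeR. The closest was Malat1 in B7low, -0.53 ± 0.24 (adjusted p = 0.541), where all 3 HDM libraries were below both saline libraries. The same order held in B7low for Kcnq1ot1, Gm17821 and Rn45s, and its share over all tested genes was not computed. No gene passed for the difference between the HDM effects in B7hi and B7low by edgeR (0%; 901 at an unadjusted p under 0.05, and 41 by DESeq2 and 0 by limma-voom after adjustment). For Kcnq1ot1 that difference was 2.88 ± 1.59 (adjusted p = 0.694), and -0.05 (adjusted p = 0.992) with B7low saline 2 and B7hi HDM 2 left out. The saline and HDM population contrasts share no library, only the pooled estimate of spread, but each HDM effect shares its libraries with the population contrasts, so their signs are not independent.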

How the data were processed

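Raw read counts per gene symbol, deposited by the authors for each of 10 libraries, were the only values used. Libraries were SmartSeq2, sequenced as paired reads of 25 nt, per the labels' protocols. Build mm10 and the tools Cufflinks 2.2.1, TopHat2 2.0.10 and DESeq2 appear in the submitters' processing notes. How reads were counted (annotation, strand, reads with several matches) is not given in the sources used here. The table holds no mitochondrially encoded gene of 28 listed.

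Groups came from the sample titles. After filterByExpr and TMM scaling, edgeR 4.0.16 in R 4.3.3 gave the robust quasi-likelihood test, 1 mean per group, all 10 libraries, with Benjamini-Hochberg adjustment over 10533 genes and a threshold of 0.05. The steps were tested on simulated data. SE is approximate (absolute log2 fold change divided by the root of F). Likeness used log2 CPM with a prior count of 2. Alternatives used library size alone, DESeq2 size factors, DESeq2 1.42.0, limma-voom (limma 3.58.1), other filters, Rn45s left out, a replicate block and libraries left out. Named genes were the 6, the 5 most like Kcnq1ot1 and Kcnq1, and of each list the most abundant and those called; Vmn2r55 and Synj2bp were picked after their values were seen. The members and gene lists were chosen with earlier results of these data known. Transcripts came from GENCODE M21 (GRCm38).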

Additional observations from a re-analysis of the deposited data

Results flagged for a closer look

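The HDM effect on Rn45s pointed in opposite directions in the populations. All 3 B7hi HDM libraries (229452 to 271239 CPM) were above both B7hi saline libraries (181668 and 194350 CPM), and all 3 B7low HDM libraries (214312 to 251750 CPM) were below both B7low saline libraries (309178 and 310900 CPM). The difference between the effects was 0.7783 on the log2 scale (SE 0.3351), with an unadjusted p of 0.0332 and an adjusted p of 0.544 by edgeR, so it did not pass over all genes; over 18 alternatives the adjusted p ran from 0.0966 to 0.928. Library totals moved with the groups too: the saline B7hi libraries were large and the saline B7low libraries small. The part of the totals in this value was not tested.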

How the results depend on the processing

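Of the member and list-gene results, 679 values stayed the same, 22 reversed, 63 lost and 6 gained a call, and 4 moved (Kcnq1 between populations). Staying the same meant keeping direction and side of the threshold. For Kcnq1 between populations it meant the same sign and a change smaller than the SD of log2 CPM within groups. Where DESeq2 gave no adjusted p, as for Gm17821, it meant the same sign. Genes called with saline (689) became 1078 with no count filter and 226 to 685 with 1 library left out. Genes called between populations with HDM (299) became 507 by DESeq2, 548 with no filter and 137 to 368 with 1 library left out. For HDM in B7hi (1), DESeq2 gave 54, limma-voom 11, no filter 89, the replicate block 6, leaving out both B7low saline 2 and B7hi HDM 2 gave 5, and 1 library left out gave 0 to 11. For HDM in B7low (1), library size alone gave 4, DESeq2 size factors 0, DESeq2 19, limma-voom 0, no filter 112, at least 5 CPM in 2 libraries 3, the replicate block 2, both libraries left out 0, and 1 left out 0 to 13. For the difference between HDM effects (0), library size alone gave 2, DESeq2 41, no filter 143, at least 5 CPM in 2 libraries 3, both libraries left out 1, and 1 left out 0 to 3. Library size alone moved the median of all genes with saline from 0.03 to 0.30 and the higher share of calls from 44.4% to 67.9%, and the median of the difference between HDM effects from -0.04 to -0.33.

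With both B7low saline 2 and B7hi HDM 2 left out, the log2 values that reversed were, between populations with HDM, -1.07 (Kcnq1ot1), -1.33 (Gm17821) and -0.036 (Rn45s); for HDM in B7hi, -0.34 (Kcnq1ot1), -0.41 (Gm17821) and 0.0056 (Neat1); and for the difference between HDM effects, -0.053 (Kcnq1ot1) and -0.21 (Gm17821). With 1 library left out, values that changed sign ran, between populations with HDM, from -1.09 to 1.58 (Kcnq1ot1), -1.34 to 1.89 (Gm17821) and -0.049 to 0.13 (Rn45s); for HDM in B7hi, from -0.34 to 2.31 (Kcnq1ot1), -0.41 to 2.80 (Gm17821) and -0.25 to 0.10 (Neat1); for HDM in B7low, from -0.15 to 0.22 (Neat1); and for the difference between HDM effects, from -0.34 to 0.12 (Neat1). Malat1 for HDM in B7hi was -0.044 with library size alone. Neat1's rho with the total was -0.0061 with Rn45s, or all 6 genes, left out of the total. The cause of these changes was not tested, but fewer libraries entered where any were left out.

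Whether replicate numbers pair the libraries could not be decided. Deviations from the group mean correlated at -0.11 to 0.19 for same-numbered libraries (over 0.1 in 4 of 13 pairs). For others they correlated at -0.24 to 0.24 (over 0.1 in 3 of 24 pairs). In a group of 2 libraries the deviations mirror each other, so many of these values are the same with the sign changed. Under the replicate block Rn45s with saline passed (-0.72, adjusted p = 0.0276 by edgeR), as it did by DESeq2 (0.00155) and limma-voom (0.0140), and no other member or list call changed. With 2 or 3 libraries a group, a difference that did not pass is not shown to be absent.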
